A study of Homo sapiens with 31 samples.

Results

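The messages of 10 genes of the NF-κB system were followed through serum release of MCF10A cells, with and without palbociclib. They were 4 genes for subunits of the transcription factor (NFKB1, NFKB2, RELA and RELB), 3 genes of the IκB family (NFKBIA, NFKBIB and NFKBIZ), the gene of the ubiquitin-editing enzyme A20 (TNFAIP3), and BIRC2 and BIRC3, which encode the ubiquitin ligases cIAP1 and cIAP2. The genes were taken by name, 10 of the 56269 gene names counted, and all 10 passed the filter on low counts that left 15787 genes for testing.

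MCF10A is an established human mammary epithelial line that is not tumorigenic and needs growth factors to divide. The cells of every group were first held for 2 to 3 days in a starvation medium without serum, EGF or insulin, which still held hydrocortisone, cholera toxin and albumin. The starved state was sampled as 0 h, before any vehicle. Release was into full growth medium, with horse serum, EGF, insulin, hydrocortisone and cholera toxin, carrying either 0.1% DMSO, the vehicle, for 3, 6, 9, 12, 15 or 24 h, or 1 µM palbociclib, an inhibitor of the kinases CDK4 and CDK6 that blocks entry into S phase, for 9, 12, 15 or 24 h. This gave 31 poly(A) RNA libraries in 11 groups of 3, except that both 24 h groups held 2 (replicates 1 and 3). Nothing in the labels says that replicates came from separate cultures. The p-values therefore reflect library-to-library spread alone, and that spread may be technical.

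NF-κB proteins bind DNA as dimers, and in resting cells IκB proteins keep the dimers in the cytoplasm. In the canonical branch, receptors for TNF and interleukin-1 act through adaptors, ubiquitin ligases such as cIAP1 and cIAP2, and the IKK kinases to destroy IκBα and free dimers of RELA and p50, the product of NFKB1. In the non-canonical branch, the NFKB2 product p100 is trimmed to p52, which pairs with RELB. NFKBIA, TNFAIP3, NFKB2, RELB and BIRC3 are textbook NF-κB target genes, and A20 and IκBα close a negative feedback loop. In epithelial cells the pathway is known for inflammatory and survival genes.

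The promoters below, from RefSeq on GRCh38.p14, are of some members that moved far and of some that moved less. They show where these promoters hold letters of the κB consensus, the sequence NF-κB dimers are known to bind. A promoter here is 250 bases before to 50 bases after an annotated start site, printed 5′ to 3′ on the gene's strand. Capitals mark matches, on either strand, to the κB consensus of 10 letters. NFKBIA (chr14:35404700-35404999, minus strand), TNFAIP3 (chr6:137867009-137867308, plus strand) and BIRC3 (chr11:102317234-102317533, plus strand) are the feedback and survival genes. NFKB2 (chr10:102394328-102394627, plus strand, start site 2) and NFKB1 (chr4:102501109-102501408, plus strand, start site 1) are the precursor subunits. For both, a start site with a match was printed. NFKB1 start site 2 and NFKB2 start site 1 held 0 matches, and NFKB2 start site 3 held 2. BIRC2 (chr11:102346964-102347263, plus strand, start site 1) is the chromosomal neighbour of BIRC3 and is shown because no match was found in it.
NFKBIA: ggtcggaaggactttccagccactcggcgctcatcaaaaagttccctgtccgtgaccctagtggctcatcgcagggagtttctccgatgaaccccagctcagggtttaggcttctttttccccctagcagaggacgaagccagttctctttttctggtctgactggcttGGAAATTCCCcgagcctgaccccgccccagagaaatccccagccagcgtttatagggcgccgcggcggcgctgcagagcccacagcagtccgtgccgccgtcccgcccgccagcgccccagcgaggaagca
TNFAIP3: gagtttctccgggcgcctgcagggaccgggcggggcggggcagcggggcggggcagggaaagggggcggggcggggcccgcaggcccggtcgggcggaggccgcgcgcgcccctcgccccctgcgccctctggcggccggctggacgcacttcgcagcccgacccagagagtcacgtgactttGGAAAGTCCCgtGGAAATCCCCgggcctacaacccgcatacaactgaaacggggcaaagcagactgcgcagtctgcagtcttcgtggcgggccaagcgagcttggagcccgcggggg
BIRC3: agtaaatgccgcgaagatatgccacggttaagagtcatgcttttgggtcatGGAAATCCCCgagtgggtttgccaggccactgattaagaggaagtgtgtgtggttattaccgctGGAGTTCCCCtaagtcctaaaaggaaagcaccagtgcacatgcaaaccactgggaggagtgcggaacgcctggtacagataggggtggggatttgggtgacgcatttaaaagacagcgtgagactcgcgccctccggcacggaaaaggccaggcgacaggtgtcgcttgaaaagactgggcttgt
NFKB2: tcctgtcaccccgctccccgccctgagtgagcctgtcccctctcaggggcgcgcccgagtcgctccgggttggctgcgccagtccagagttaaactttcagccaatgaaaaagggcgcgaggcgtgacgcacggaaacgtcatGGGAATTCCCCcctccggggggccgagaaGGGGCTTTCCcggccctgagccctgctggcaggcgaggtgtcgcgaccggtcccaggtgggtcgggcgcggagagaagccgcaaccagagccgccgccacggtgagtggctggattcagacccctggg
NFKB1: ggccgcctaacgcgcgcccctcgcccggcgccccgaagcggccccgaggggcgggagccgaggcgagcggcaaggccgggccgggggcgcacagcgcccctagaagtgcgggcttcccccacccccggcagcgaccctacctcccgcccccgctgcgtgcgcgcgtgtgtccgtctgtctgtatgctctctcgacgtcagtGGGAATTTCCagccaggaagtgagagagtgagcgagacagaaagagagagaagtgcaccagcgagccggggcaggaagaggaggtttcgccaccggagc
BIRC2: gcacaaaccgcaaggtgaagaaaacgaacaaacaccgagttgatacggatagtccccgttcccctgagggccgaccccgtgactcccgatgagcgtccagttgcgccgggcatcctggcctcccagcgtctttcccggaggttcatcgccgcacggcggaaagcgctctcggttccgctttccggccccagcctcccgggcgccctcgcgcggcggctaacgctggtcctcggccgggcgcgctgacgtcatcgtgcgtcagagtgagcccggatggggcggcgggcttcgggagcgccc

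NFKBIA had 1 match, GGAAATTCCC, whose leading base lay 81 bases before the start site, and the same letters read on the other strand are the GGGAATTTCC that stood 49 bases before the NFKB1 start site. TNFAIP3 had GGAAAGTCCC at 67 and GGAAATCCCC at 55 bases before its start site. BIRC3 had GGAAATCCCC at 199 and GGAGTTCCCC at 135 bases. At its start site 2, NFKB2 had overlapping matches at 107 and 106 bases, printed as 1 run of capitals, and GGGGCTTTCC at 78 bases. NFKBIB and NFKBIZ also held matches. Of the 9 members found by symbol in the promoter set used, 7 had a match in at least 1 promoter (9 of 16 promoters), and RELA and BIRC2 had none. RELB had no promoter in that set, so it was not searched. A match was found in 5.91% of all 35116 promoters listed, and of 27305 gene symbols 7.09% held one in any promoter. A match is a description of letters, not a measured site.

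Library totals ran from 10342358 to 20878364 counts, and each member had between 127 counts (NFKBIZ) and 8325 counts (BIRC3) in a library. Levels below are counts scaled to a library total of 1e6 (CPM) with TMM factors, so each is a share of the mRNA of a library. As in any bulk sample, fewer cells expressing a gene and less RNA per cell cannot be told apart. The 8 basal epithelial markers of the list were detected in every group, with a summed level of 11060 to 18914 CPM. Of the 13 markers of other cell types, PTPRC and CD3E had 10 and 2 counts over all 31 libraries. The summed level of that list went from 63.4 to 67.8 CPM at 0 h to 22.0 to 22.1 CPM at 24 h in DMSO and 21.6 to 22.2 CPM with palbociclib, of which CD14 and COL1A1 made up most, and its part in the changes below was not tested. E2F1 and CDC6, which palbociclib is known to hold down, stood at 19.8 and 20.7 CPM and at 72.2 and 71.7 CPM in DMSO at 24 h, against 3.31 and 3.71 CPM and 12.0 and 10.4 CPM with palbociclib. Their median log2 difference between palbociclib and DMSO was -4.30 at 9 h, -5.54 at 12 h and -5.09 at 15 h. At 24 h it was smaller, at -2.60. After the group means were taken out, the leading axis of log2 CPM (27.5% of the remaining variance) put replicate 3 of 24 h DMSO and of all 4 palbociclib groups at 7.84 to 27.2 and replicate 3 of the other 6 groups at -18.5 to -7.51. The labels give no reason for this. In each 24 h group the 2 scores are equal and opposite by construction, so they cannot say which library is the odd one. With palbociclib at 15 h, replicate 1 had the most extreme score (-31.6). Changes of members and list genes at 24 h were recomputed without those 5 libraries, which leaves 1 library in each 24 h group and assumes that it varies like the others. Values given below without named libraries keep the TMM factors and the tested genes of the full set, unless recomputed factors are named.

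By 24 h in DMSO, 7 of the 10 messages were lower than in starved cells, beside 38.9% of all tested genes. The smallest of the 7 falls, that of RELA (-0.15), was not called without any 1 of 4 libraries or without the 5 libraries above. RELB, NFKBIA, NFKBIZ and BIRC3 were lower than at 0 h at all 6 times in DMSO. NFKB2 was lower from 6 h on, and TNFAIP3 was lower from 6 h on after a rise at 3 h. BIRC2 was lower at 3, 9 and 12 h. NFKB1 was higher at all 6 times, RELA rose at 3 and 6 h and ended just below its starved level, and NFKBIB was higher at 12, 15 and 24 h. Some small changes lost their call when certain libraries were left out, as given below. These were TNFAIP3 at 6 h, NFKB1 at 6 and 15 h, NFKBIB at 12 and 24 h and BIRC2 at 9 and 12 h. A gene was called where edgeR's quasi-likelihood test over all 15787 genes gave a Benjamini-Hochberg adjusted p below 0.05.

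**Figure D1:**
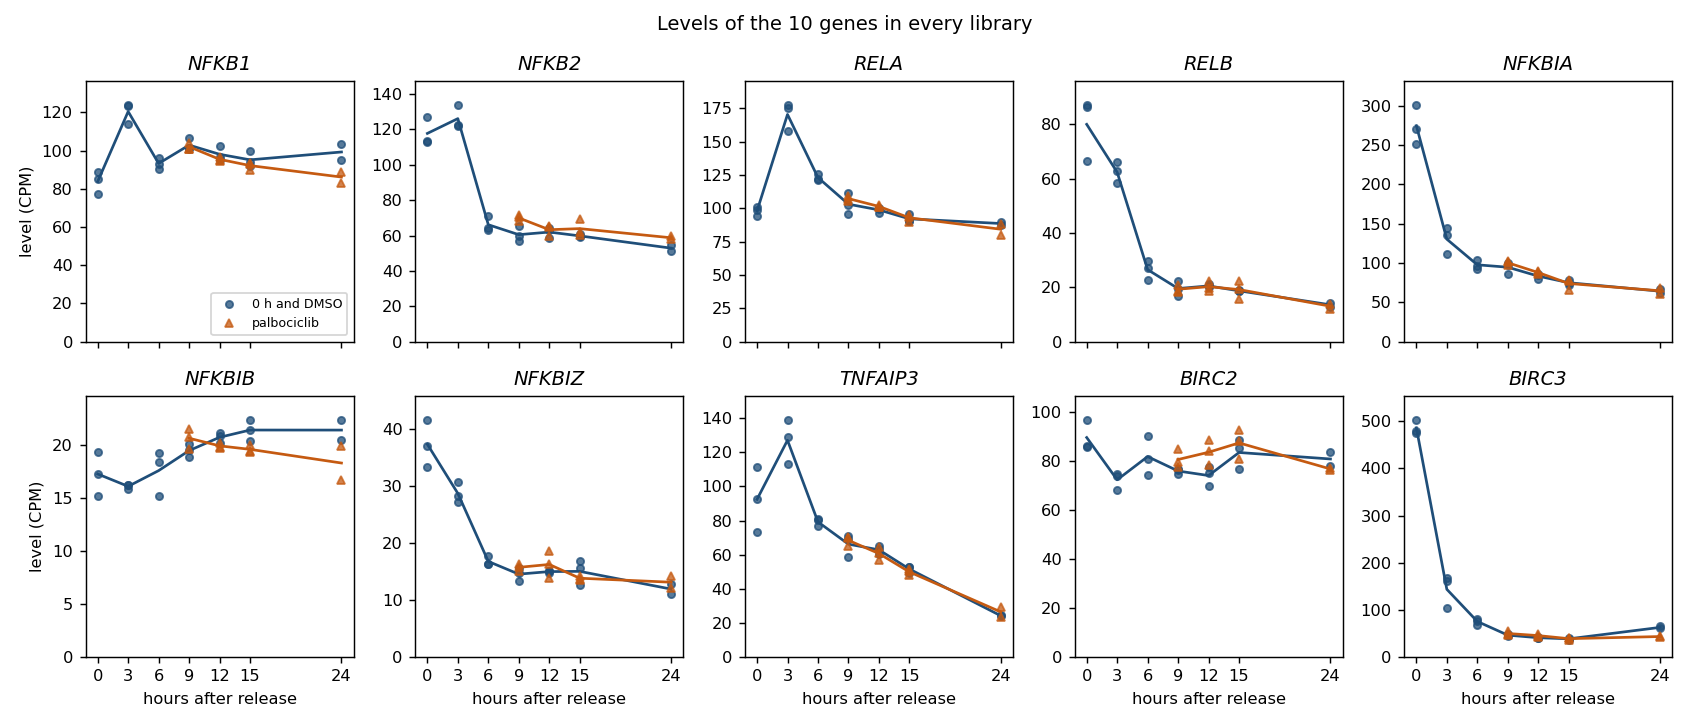
Level of each of the 10 genes in CPM (vertical axis, from 0) against hours after release (horizontal axis). Each point is 1 library (circles, 0 h and DMSO; triangles, palbociclib) and lines join group means. BIRC3 went from 486 CPM at 0 h to 38.1 CPM at 15 h, while BIRC2 stayed between group means of 72.2 and 89.5 CPM.

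At 3 h, 3 members were called higher and 5 lower, while 62.2% of all tested genes were called (27.8% higher and 34.4% lower). At 6 h the members' counts were 2 and 6, beside 73.5% of all genes (34% and 39.5%). They were 1 and 7 at 9 h, beside 75.1% (35.3% and 39.9%), and 2 and 7 at 12 h, beside 75.7% (36.1% and 39.6%). At 15 h they were 2 and 6, beside 76.7% (37.4% and 39.3%), and at 24 h 2 and 7, beside 75.7% (36.7% and 38.9%). The total number of members called was thus near the background, and most of those called were lower.

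Falls of at least 2-fold were seen for 2 members at 3 h, while 9.42% of all genes fell that far. The count was 4 of 10 at each time from 6 to 15 h, with 18.5%, 20.4%, 20.7% and 20.9% of all genes, and 6 of 10 at 24 h, with 22%. No member rose by 2-fold at any time. The members' median log2 change went from -0.21 at 3 h through -0.52, -0.72, -0.74 and -0.91 to -1.40 at 24 h, while the median of all tested genes stayed between -0.10 and -0.06. All 6 comparisons share the 0 h libraries.

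**Figure D2:**
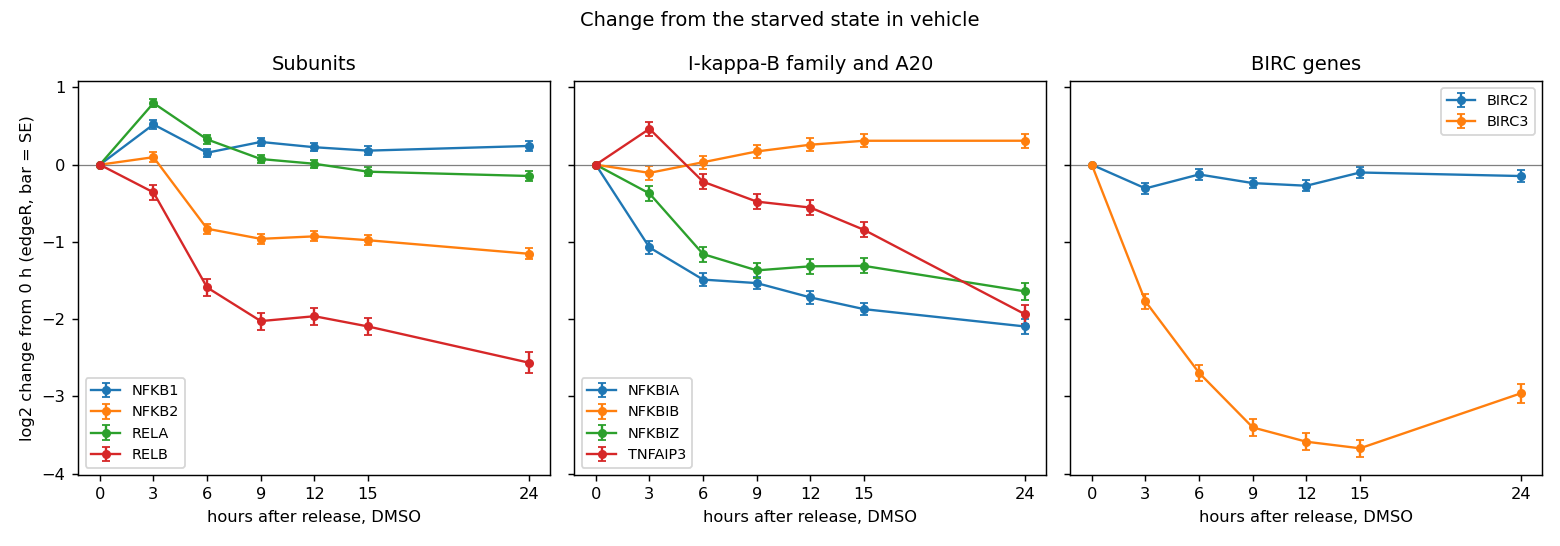
Log2 change from 0 h in DMSO (vertical axis, edgeR estimate, bars are SE) against hours after release, for the subunits, for the IκB family with A20, and for the BIRC genes. RELB, NFKBIA, NFKBIZ, NFKB2, TNFAIP3 and BIRC3 were at least 2-fold lower at 24 h, and NFKB1, NFKBIB, RELA and BIRC2 stayed within 1 log2 unit of 0 h.

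RELA (chr11:65653596-65663094, minus strand; GRCh38 here and for each member, from the files' annotation) encodes p65, the subunit that carries the main activation domain of canonical dimers. Its 0 h libraries read 101, 98.7 and 94.6 CPM and its 3 h libraries 178, 176 and 158 CPM. Every 3 h library was above every starved one. The log2 change was 0.80 ± 0.05 (SE, adjusted p = 3.15e-14 by edgeR). At 6 h RELA was still higher by 0.33 ± 0.05 (adjusted p = 2.63e-06), and from 9 to 15 h it was not called. At 24 h its libraries, 89.9 and 87.5 CPM, lay just under the starved range, a log2 change of -0.15 ± 0.06 (adjusted p = 0.0312 by edgeR). That small fall was not called without 0 h replicate 1 (-0.12) or 2 (-0.14), without 24 h DMSO replicate 1 (-0.16) or 3 (-0.13), or without the 5 libraries (-0.13, or -0.03 with recomputed factors). It was also lost with DESeq2 (-0.12), RLE factors (-0.12), no filter on low counts (-0.14) and only its own libraries in the fit (-0.14).

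NFKB1 (chr4:102501329-102617302, plus strand), whose precursor p105 gives p50, was lowest in the starved cells. It stood at 85.3, 88.6 and 77.5 CPM at 0 h, at 124, 114 and 123 CPM at 3 h, and at 103 and 95.02 CPM at 24 h. The 3 h libraries were the highest of all 31, and neither the 3 h nor the 24 h libraries overlapped the starved ones. The log2 changes were 0.52 ± 0.05 at 3 h (adjusted p = 5.72e-10) and 0.24 ± 0.06 at 24 h (adjusted p = 0.000534 by edgeR). The 24 h change without the 5 libraries was 0.30 (adjusted p = 0.00153 by edgeR), and 0.40 with recomputed factors. The rise at 6 h (0.16) was not called without 0 h replicate 3 (0.10) or 6 h DMSO replicate 2 (0.13). The rises at 6 h and 15 h (0.18) were not called with library totals in place of TMM (0.09 and 0.07) or with no filter (0.16 and 0.18).

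NFKB2 (chr10:102394110-102402529, plus strand) encodes p100, which acts as an IκB until it is trimmed to p52. Its libraries read 113, 127 and 113 CPM at 0 h and 134, 122 and 123 CPM at 3 h. These groups overlapped, and the log2 difference of 0.10 ± 0.06 was not called (adjusted p = 0.175 by edgeR), with a 95% interval of -0.03 to 0.22. It was called without 0 h replicate 2 (0.16) and with only its own libraries in the fit (0.19). By 6 h the libraries had dropped to 64.3, 71.1 and 63.1 CPM, far under all earlier ones. The step from 3 to 6 h was -0.93 ± 0.06 (adjusted p = 1.18e-13 by edgeR). NFKB2 then stayed near that level, at 52.9 ± 2.38 CPM (SD, n = 2) at 24 h, which was 44.9% of the starved level. The log2 change at 24 h without the 5 libraries was -1.20.

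RELB, the partner of p52, (chr19:45001430-45038198, plus strand) fell furthest of the 4 subunit genes. It stood at 86.3, 87.2 and 66.5 CPM at 0 h, at 66.2, 62.7 and 58.3 CPM at 3 h, and at 29.9, 27.2 and 22.5 CPM at 6 h. The 0 h and 3 h groups came close to overlapping, and the 6 h libraries were clear of both. The log2 change was -0.36 ± 0.10 at 3 h (adjusted p = 0.0025) and -1.59 ± 0.11 at 6 h (adjusted p = 1.64e-14 by edgeR). At 24 h the libraries read 14.4 and 12.7 CPM, 17.0% of the starved mean and 5.91-fold lower in the fit (log2 -2.56 ± 0.13, adjusted p = 2.79e-17 by edgeR). It was -2.47 without the 5 libraries.

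NFKBIA (chr14:35401511-35404749, minus strand) encodes IκBα, the inhibitor that is destroyed and remade in each round of canonical signalling. Its starved libraries read 301, 252 and 271 CPM, its 3 h libraries 135, 145 and 111 CPM, and its 24 h libraries 61.6 and 66.8 CPM. Each of these groups was wholly below the one before it. The log2 change was -1.07 ± 0.08 at 3 h (adjusted p = 2.59e-13) and -2.09 ± 0.10 at 24 h (adjusted p = 8.56e-19 by edgeR). No DMSO group mean was above that of the time before it. Of all 10 members, NFKBIA followed the leading axis within groups most closely (r = 0.64 over 31 libraries, as a description). Its 24 h change without the 5 libraries was -2.16.

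NFKBIZ (chr3:101827991-101861022, plus strand) encodes IκBζ, a nuclear member of the family that works with p50 on selected genes. It had 41.7, 33.4 and 37.1 CPM at 0 h, 27.3, 30.7 and 28.2 CPM at 3 h, and 10.96 and 12.8 CPM at 24 h. The groups did not overlap, and the starved libraries were the highest. The log2 changes were -0.37 ± 0.09 (adjusted p = 0.000827) and -1.64 ± 0.11 (adjusted p = 4.26e-14 by edgeR), and the 24 h change was -1.77 without the 5 libraries.

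TNFAIP3 (chr6:137867188-137883312, plus strand) encodes A20, which takes activating ubiquitin chains off signalling adaptors. Its libraries spread widely at 0 h, at 112, 73.1 and 92.6 CPM, and stood at 129, 139 and 113 CPM at 3 h. All 3 h libraries lay above all starved ones, by a narrow margin, and the log2 change was 0.46 ± 0.09 (adjusted p = 7.02e-05 by edgeR). By 24 h TNFAIP3 read 23.9 and 24.3 CPM, 3.83-fold below 0 h (log2 -1.94 ± 0.12, adjusted p = 2.28e-15 by edgeR; -1.95 without the 5 libraries). The change at 6 h (-0.22, adjusted p = 0.0378 by edgeR) was not called without 0 h replicate 1 (-0.06) or 3 (-0.22), or without any 1 of the 3 libraries at 6 h (-0.23, -0.23 and -0.20). It was also not called with DESeq2 (-0.20), with RLE size factors (-0.20), or with only its own libraries in the fit (-0.13). A clone-named gene on the opposite strand shares 1.88% of its exonic bases.

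NFKBIB (chr19:38899700-38908893, plus strand) encodes IκBβ, an inhibitor with slower turnover. It read 15.2, 19.3 and 17.2 CPM at 0 h, 21.4, 22.4 and 20.4 CPM at 15 h, and 20.5 and 22.3 CPM at 24 h. The later libraries all lay above the starved ones. The log2 changes were 0.26 ± 0.08 at 12 h (adjusted p = 0.00574), 0.31 ± 0.08 at 15 h (adjusted p = 0.00123) and 0.31 ± 0.09 at 24 h (adjusted p = 0.00299 by edgeR). The 12 h call was lost without 0 h replicate 1 (0.18) and with library totals (0.17), and the 24 h call without 24 h DMSO replicate 3 (0.24). The 24 h call was also lost without the 5 libraries (0.24), but kept there with recomputed factors (0.34). The 9 h difference (0.17) was not called, but was called without 0 h replicate 2 (0.26). It was also called with RLE factors (0.20) and own libraries only (0.23). Exons of SIRT2 on the opposite strand overlap 1.72% of its exonic bases.

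BIRC3, which encodes cIAP2, gave the largest change of the 10 genes at each of the 6 times. Its starved libraries read 503, 480.1 and 476 CPM. At 3 h they read 167, 103 and 160.5 CPM, with replicate 2 the lowest, and at 15 h 36.3, 39.2 and 38.8 CPM. No released library came near a starved one. The fit gave a 3.41-fold fall at 3 h (log2 -1.77 ± 0.10, adjusted p = 4.38e-16) and a 12.7-fold fall at 15 h (log2 -3.67 ± 0.11, adjusted p = 2.27e-23 by edgeR). BIRC3 then turned upward in DMSO. The 24 h libraries read 60.2 and 64.7 CPM, above all libraries of 9, 12 and 15 h, and the step from 15 to 24 h was 0.71 ± 0.12 (adjusted p = 3.13e-05 by edgeR; 0.66 without the 5 libraries).

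BIRC2, which encodes cIAP1 and lies beside BIRC3 on chromosome 11 (BIRC3 at chr11:102317450-102339403 and BIRC2 at chr11:102347211-102378670 on GRCh38, both on the plus strand), moved little. It read 96.7, 85.5 and 86.2 CPM at 0 h, 68.2, 74.5 and 73.9 CPM at 3 h, and 78.0 and 83.4 CPM at 24 h. The starved libraries were the highest of these, and the 24 h libraries came close to them. The log2 change was -0.31 ± 0.07 at 3 h (adjusted p = 0.000314 by edgeR). At 24 h it was -0.15 ± 0.08 and not called (adjusted p = 0.0845 by edgeR). The 24 h difference without the 5 libraries was -0.20 and not called (adjusted p = 0.0953 by edgeR). The falls at 9 h (-0.24) and 12 h (-0.27) kept their call without any 1 library, except where the factors were recomputed without 9 h DMSO replicate 1 or 2 (both -0.15) or 12 h DMSO replicate 3 (-0.15), and the 9 h fall without the 5 libraries stood at -0.24 (-0.13, not called, with recomputed factors). At 6 h BIRC2 was called lower without 6 h DMSO replicate 2 (-0.21). Over the 11 groups the highest mean of BIRC2 was 1.24 times the lowest, against 12.8 times for BIRC3.

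Most movement between neighbouring times was early. From 3 to 6 h, 8 members fell and BIRC2 rose, beside 57.6% of all genes called (29.8% lower and 27.8% higher). From 6 to 9 h, 4 fell and 1 rose, beside 34.8% of all genes (16.6% lower and 18.1% higher). BIRC3 fell by 0.71, RELB by 0.44, TNFAIP3 by 0.26 and RELA by 0.25 on the log2 scale, and NFKB1 rose by 0.14. The NFKB1 step was not called without 6 h DMSO replicate 1 or 3 or any 1 of the 9 h DMSO libraries (0.12 to 0.15), with no filter (0.14) with own libraries only (0.13) or without the 5 libraries (0.14), and the number called was 3 without 6 h DMSO replicate 1, without 9 h DMSO replicate 3 and without the 5 libraries. No member was called from 9 to 12 h (15.2% of all genes) or from 12 to 15 h (7.01%) with edgeR, where 1 and 2 members had an unadjusted p below 0.05 and DESeq2 called 0 as well. With only their own libraries in the fit, BIRC3 (-0.19, adjusted p = 0.0257) and NFKBIA (-0.19, adjusted p = 0.0361) were called by edgeR from 9 to 12 h and TNFAIP3 (-0.30) from 12 to 15 h, and TNFAIP3 was called there with no filter as well (-0.29). From 15 to 24 h, 4 members were called, 1 higher and 3 lower, beside 29.6% of all genes (16.5% higher and 13% lower). BIRC3 rose, and TNFAIP3 fell by 1.09 ± 0.12, RELB by 0.47 ± 0.14 and NFKBIZ by 0.33 ± 0.12.

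The small steps were the least steady. Without the 5 libraries fewer of the late steps were called, as among all genes. RELB lost the call without 24 h DMSO replicate 3 and without the 5 libraries (both -0.38). NFKBIZ lost it without 24 h DMSO replicate 1 (-0.23) or 15 h DMSO replicate 2 (-0.30) or 3 (-0.25), with DESeq2 (-0.33), with no filter (-0.32) and without the 5 libraries (-0.46). The early rise of BIRC2 (0.18) was not called without 3 h DMSO replicate 1 (0.14) or 6 h DMSO replicate 2 (0.10), with no filter (0.17) or with own libraries only (0.18), and NFKBIB was called in that step without 6 h DMSO replicate 3 (0.23). TNFAIP3 lost its 6 to 9 h call without 6 h DMSO replicate 1 (-0.25) or 2 (-0.24), 9 h DMSO replicate 3 (-0.18) or the 5 libraries (-0.26).

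To set the genes against each other, levels were divided by exonic length (CPM per kb). In starved cells NFKBIA led at 116 ± 10.5 CPM per kb (SD, n = 3), then BIRC3 at 64.7 ± 1.97. RELB (26.4) and NFKB2 (26.3) came next and overlapped, as did the next neighbours BIRC2 (19.7), TNFAIP3 (18.3) and RELA (18.0). NFKB1 followed at 13.4, and NFKBIB (7.42) and NFKBIZ (6.33) were lowest and overlapped. At 24 h in DMSO the order had changed. NFKBIA still led at 27.1 CPM per kb, but BIRC2 (17.8), RELA (16.2) and NFKB1 (15.9) followed, with RELA and NFKB1 overlapping. NFKB2 (11.8), NFKBIB (9.20) and BIRC3 (8.31) came next, and TNFAIP3 (4.77) and RELB (4.48) overlapped above NFKBIZ (2.02). Per kb, the canonical subunit genes thus stood above both non-canonical ones at 24 h and below both at 0 h. The length used counts every annotated exon, whether or not it was expressed. Without the division by length, the 0 h means of RELA (98.1 CPM) and NFKB1 (83.8 CPM) were above that of RELB (80.0 CPM). Both were below that of NFKB2 (118 CPM). At 24 h, RELA (88.7 CPM) and NFKB1 (99.2 CPM) were above NFKB2 (52.9 CPM) and RELB (13.6 CPM) without the division as well. The order of all 10 genes did not hold, since NFKBIA (64.2 CPM) then stood below NFKB1, RELA and BIRC2 (80.7 CPM).

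**Figure D3:**
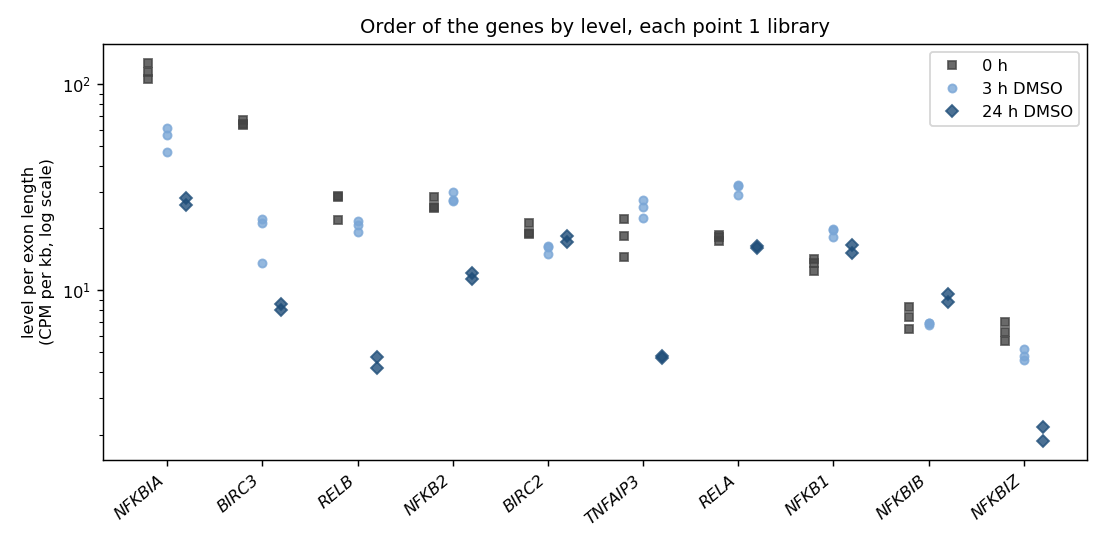
Level per exonic length (CPM per kb, log axis) of each gene in every library at 0 h (squares), 3 h DMSO (circles) and 24 h DMSO (diamonds), ordered by the 0 h mean. BIRC3 went from 64.7 CPM per kb at 0 h to 8.31 at 24 h, and RELB from 26.4 to 4.48.

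Over the 11 group means of log2 CPM, Pearson's r was 0.99 for RELB with NFKBIZ and 0.96 for NFKB2 with NFKBIZ. Among the 15 pairs of the 6 members that were at least 2-fold lower at 24 h it ran from 0.51 (TNFAIP3 with BIRC3) to 0.99. These 6 were picked for their fall at 24 h, which by itself makes r positive, and the courses differed early, since TNFAIP3 rose at 3 h while BIRC3 fell. RELA and NFKB1 gave 0.74, and BIRC2 with BIRC3 gave 0.26. These are descriptions over groups that share cells, medium and time, and the genes named next were the highest of 8989. The 2 genes most like each member were LIFR and DSP for RELB, DSP and IFT140 for NFKBIZ, NOTCH1 and DHX40 for BIRC3, FBXW4 and SLC41A3 for NFKBIA, KRT17 and MYSM1 for TNFAIP3, METRNL and PLEKHG3 for RELA and BMP1 and PLEKHM1 for NFKB2, all with r of 0.98 to 0.995. For NFKBIB they were EXOSC10 (0.99) and CEP135 (0.95), for NFKB1 DAXX (0.96) and MAPK8 (0.95), and for BIRC2 PURA (0.88) and ACVR2A (0.83).

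Palbociclib was compared with DMSO at the 4 times that had both. Before 24 h no member was called at 9 h (1.19% of all genes), 12 h (5.64%) or 15 h (10.9%) by edgeR, and DESeq2 called 0 as well. The members with an unadjusted p below 0.05 numbered 1, 1 and 0, and the lowest adjusted p was 0.159 (NFKB2 at 9 h), 0.184 (BIRC2 at 12 h) and 0.389 (NFKBIB at 15 h). The 95% intervals of all 10 log2 differences ran from -0.28 to 0.34 at 9 h, from -0.27 to 0.39 at 12 h, and from -0.35 to 0.28 at 15 h. A miss of the threshold does not show that levels were equal. At 24 h, 2 members were called, both lower, beside 18% of all genes (12.3% lower). The members' median difference there was -0.06, and that of all genes was 0.01.

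BIRC3 was the member most changed by the drug. At 15 h its libraries read 36.3, 39.2 and 38.8 CPM in DMSO and 35.4, 40.7 and 39.3 CPM with palbociclib, which overlapped fully. At 24 h they read 60.2 and 64.7 CPM in DMSO and 42.3 and 43.7 CPM with palbociclib, with no overlap. With 2 libraries a group this is a weak mark, and 5 of the 10 members did not overlap at 24 h. Among these were NFKB2, NFKBIB and BIRC2, which were not called, and the share of all genes was not counted. The log2 difference at 24 h was -0.54 ± 0.14, with a 95% interval of -0.82 to -0.26 (adjusted p = 0.0045 by edgeR). The palbociclib libraries at 24 h lay close above the 15 h libraries of both arms. The difference at 24 h minus that at 9 h was -0.65 ± 0.18 (adjusted p = 0.0138 by edgeR), and BIRC3 was the only member called in that comparison, beside 10.2% of all genes (7.74% lower). Without the 5 libraries the values were -0.51 (adjusted p = 0.149) and -0.67 (adjusted p = 0.138 by edgeR), not called. The 24 h call was also lost without 24 h DMSO replicate 3 (-0.48, adjusted p = 0.0575), and, with recomputed factors, without 24 h palbociclib replicate 1 (-0.49, adjusted p = 0.0541 by edgeR). The 24 h minus 9 h call was lost without 24 h DMSO replicate 3 (-0.59) or 24 h palbociclib replicate 1 (-0.63).

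**Figure D4:**
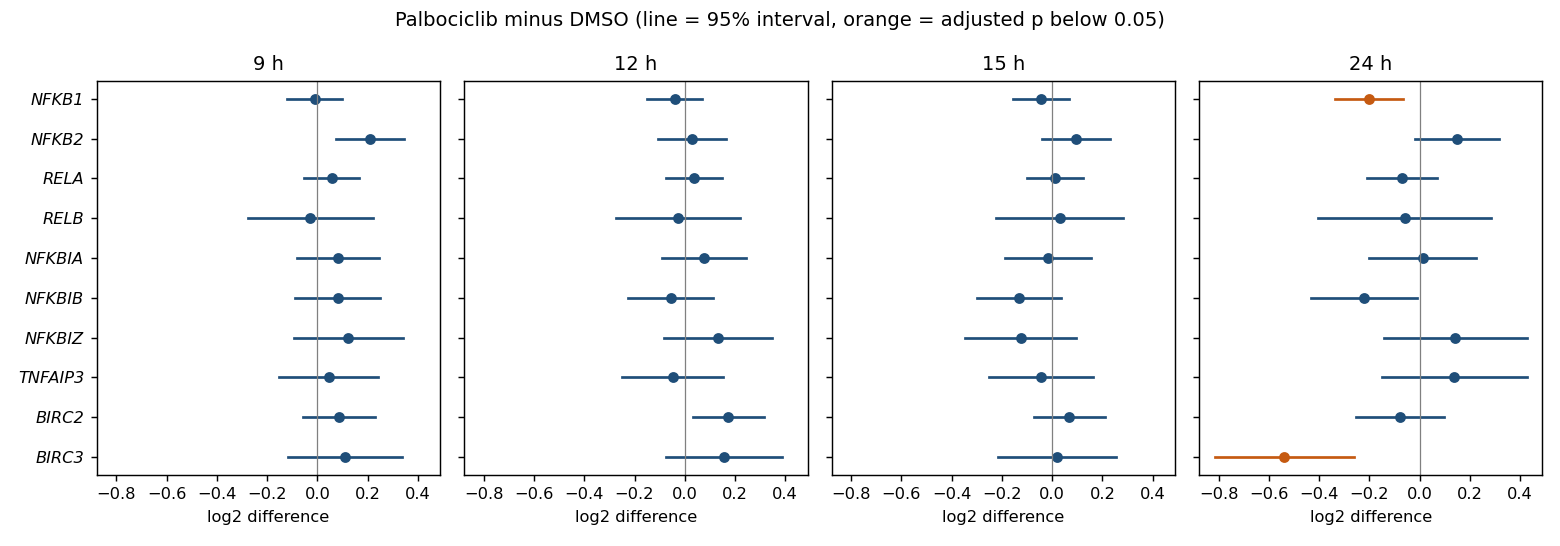
Palbociclib minus DMSO as a log2 difference (horizontal axis) for each gene at 9, 12, 15 and 24 h. Points are edgeR estimates and lines 95% intervals, and orange marks an adjusted p below 0.05. Only BIRC3 (-0.54) and NFKB1 (-0.20) at 24 h are orange.

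NFKB1 at 24 h read 103 and 95.02 CPM in DMSO and 83.2 and 89.0 CPM with palbociclib. The groups did not overlap, as for 5 of the 10 members at 24 h, and the log2 difference was -0.20 ± 0.07 (adjusted p = 0.0311 by edgeR). The call was lost without 24 h DMSO replicate 1 (-0.14) or 24 h palbociclib replicate 1 (-0.16), with library totals (-0.17), without the filter on low counts (-0.22) and with only the 24 h libraries in the fit (-0.19). Without the 5 libraries it was not called, at -0.31 (adjusted p = 0.0517), but was called with recomputed factors, at -0.33 (adjusted p = 0.0416 by edgeR). The 24 h minus 9 h difference of -0.19 ± 0.09 was not called (adjusted p = 0.173 by edgeR). The remaining 8 members had 95% intervals between -0.43 and 0.43 at 24 h. Among them NFKBIB, at 20.5 and 22.3 CPM in DMSO and 16.7 and 19.9 CPM with palbociclib, had a difference of -0.22 ± 0.10 (adjusted p = 0.152 by edgeR), and without 24 h palbociclib replicate 3 it was -0.36 and not called (-0.39 and called with recomputed factors). In DMSO and with palbociclib, NFKBIA stood at 64.2 ± 3.65 and 64.7 ± 5.27 CPM (SD, n = 2) at 24 h, and RELB at 13.6 and 13.1 CPM (means, n = 2).

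Other genes of the pathway were read from 7 lists holding 84 genes, of which 75 were tested. At 3 h, 38 were higher and 22 lower than at 0 h, beside 62.2% of all genes called. At 24 h, 24 were higher and 33 lower, beside 75.7% of all genes, and fewer of either set were called without the 5 libraries. These shares, with 27.8% of all genes higher and 34.4% lower at 3 h and 36.7% and 38.9% at 24 h, are the background for the counts of each list below. Their median log2 change was 0.20 at 3 h and -0.03 at 24 h, beside -0.21 and -1.40 for the 10 members and -0.10 and -0.09 for all tested genes.

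Among other subunits and IκB-type genes, 3 of 6 were higher and 1 lower at 3 h. REL, the gene of c-Rel, fell from 73.9, 56.5 and 89.2 CPM to 15.6, 6.88 and 12.0 CPM at 3 h (log2 -2.72 ± 0.17, adjusted p = 4.23e-15 by edgeR) and was -2.02 at 24 h. BCL3, which encodes a nuclear IκB, rose by 1.03 at 3 h and was -0.72 at 24 h, and NFKBID, another nuclear IκB, rose by 1.35 at 3 h. Members of the family thus moved in both directions within 3 h.

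Of 21 kinases and adaptors, 11 were higher and 7 lower at 3 h (27.8% and 34.4% of all genes), and 7 and 9 at 24 h (36.7% and 38.9%). CHUK, the IKKα gene, was higher by 1.08 after 3 h and by 1.22 after 24 h, TRAF5 by 1.87 and 0.89, and IRAK1, a kinase of interleukin-1 receptor signalling, rose by 1.14 at 24 h. TAB1, a partner of the kinase TAK1, fell by 1.61 at 3 h. Of 9 tested receptors, 5 were higher and 3 lower at 3 h. TNFRSF12A, the TWEAK receptor that acts on the non-canonical branch, rose from 15.8, 19.5 and 13.9 CPM to 281, 292 and 248 CPM at 3 h (log2 4.06 ± 0.09, adjusted p = 4.86e-26 by edgeR). IL1R1, the interleukin-1 receptor, fell by 2.76 at 24 h while its co-receptor gene IL1RAP rose by 2.12.

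Of 11 ubiquitin-editing genes, 5 were higher and 4 lower at 3 h. OTUD7B, which encodes the A20 relative Cezanne, fell by 0.93 at 3 h and 1.66 at 24 h, and CYLD, a deubiquitinase, rose by 0.33 at 3 h and fell by 1.01 at 24 h. Among the remaining IAP family and its antagonists, 2 of 6 tested genes fell at 3 h. BIRC5, which encodes survivin and is made in dividing cells, rose from 4.97, 5.59 and 5.07 CPM at 0 h to 99.6 and 101 CPM at 24 h in DMSO, and stood at 0.57 and 1.17 CPM with palbociclib (log2 difference -6.77 ± 0.24, adjusted p = 1.41e-20 by edgeR). XIAP, the caspase inhibitor of the family, fell by 0.28 at 3 h and 0.14 at 24 h, and the latter was not called without the 5 libraries (-0.12).

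Textbook target genes did not move as a block. The list had 17 tested genes, of which 11 rose and 4 fell in the 3 h comparison and 8 rose and 5 fell in the 24 h one, beside 27.8% and 34.4% of all genes at 3 h and 36.7% and 38.9% at 24 h. SOD2, the mitochondrial superoxide dismutase, fell from 3125, 2996 and 2669 CPM to 150.5 and 157 CPM at 24 h (log2 -4.25 ± 0.12, adjusted p = 4.20e-24 by edgeR). ICAM1 and IRF1 were lower as well, at -1.81 and -1.89. The chemokine genes CCL20 and CXCL8 were higher instead, CCL20 by 5.80 (3 h) and 3.84 (24 h) and CXCL8 by 4.52 at 24 h, and IER3 was higher by 2.56 at 24 h.

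With palbociclib at 24 h, 10 of the 75 genes were higher and 8 lower than in DMSO, beside 18% of all genes called (12.3% lower). Without the 5 libraries fewer were called, of these genes and of all genes, with 1 library left in each 24 h group. At 9 h none was called. All 3 called ligands were higher: IL1A by 0.81 ± 0.10, IL1B by 0.93 ± 0.19 and IL18 by 0.44 ± 0.07. All 3 were still called without the 5 libraries, at 0.97, 0.94 (adjusted p = 0.0478 by edgeR) and 0.46. IL1A stood at 46.4 and 56.6 CPM in DMSO and 90.6 and 90.2 CPM with palbociclib, with no overlap. TRAF2, the adaptor that brings cIAP1 and cIAP2 to TNF receptors, was lower by 0.64 ± 0.10 (adjusted p = 6.14e-06 by edgeR; -0.64 without the 5 libraries), at 26.6 and 22.6 CPM in DMSO and 17.0 and 14.6 CPM with the drug.

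**Figure D5:**
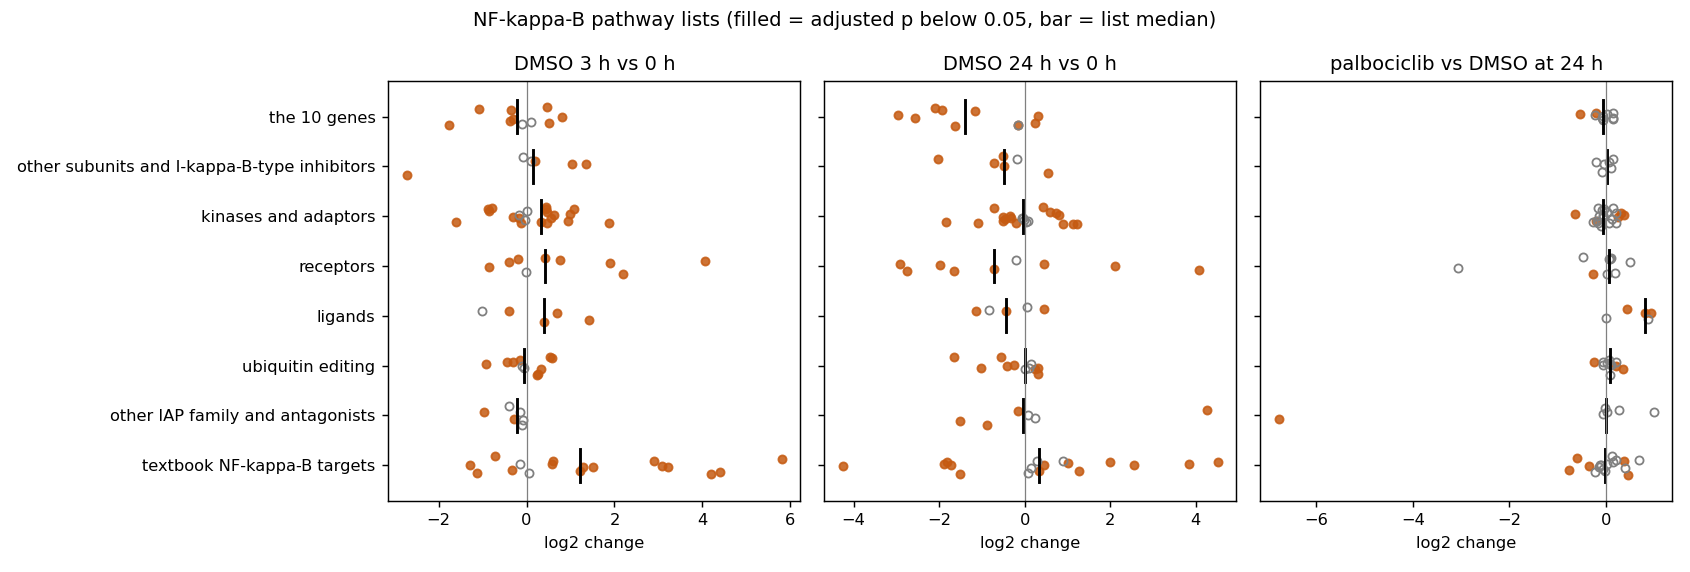
Log2 change of every tested gene in the 10 members and the 7 pathway lists (rows) at 3 h and 24 h in DMSO against 0 h and for palbociclib against DMSO at 24 h. Filled points had an adjusted p below 0.05, open points did not, and bars are list medians. The members' median was -1.40 at 24 h, and the textbook targets ranged from -4.25 (SOD2) to 4.52 (CXCL8).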

How the data were processed

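Stranded poly(A) libraries gave 75 nt single-end reads, per the labels' protocols. The submitters' processing notes name FastQC 0.11.3, the aligner TopHat2 2.1.1, Bowtie2 2.2.9, Subread 1.5.1 and the build GRCh38.p7. Each deposited file holds unnormalized counts of reads for every gene name. Per the file headers these came from featureCounts 1.5.1 over exons of GENCODE 25 without options for strand or for multi-mapping or overlapping reads. The strand of a read was thus not used in counting. The deposited series table was not used here.

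The test was run with edgeR 4.0.16 under R 4.3.3, with filterByExpr by group and TMM factors (0.927 to 1.08). It used 1 quasi-likelihood fit with a mean for each group over all 31 libraries. The fit had 20 residual degrees of freedom and a common biological coefficient of variation of 6.55%. It was also run on simulated counts, with few genes changed in the 3 h group and the same spread for every gene. That run does not cover changes as wide as those in these data. The 16 contrasts were adjusted by Benjamini-Hochberg over 15787 genes. An SE is the absolute log2 change over the square root of F, and 95% intervals use the fit's degrees of freedom. Counts in a group differed by more than sampling noise (chi-square per degree of freedom 5.73 to 10.3), so each library counted as 1 sample.

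Alternatives were DESeq2 1.42.0, RLE factors, library totals, no filter, own libraries only, a replicate block, each library left out in turn and, chosen after seeing the data, leaving out the 5 libraries. The left-out fits were run with TMM factors and filter recomputed and, also chosen after seeing the data, with both kept. Deviations of same-numbered libraries were correlated in 15 comparisons (r from -0.33 to 0.58). Every pair was above 0.1 for 3 h against 0 h and for palbociclib at 24 h. The same held for the steps 9 h against 6 h, 12 h against 9 h and 15 h against 12 h. Palbociclib at 24 h has 2 pairs, which with 2 libraries a group must give the same r (0.45), so they count as 1.

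The members, lists and tests were chosen with earlier results of these data known. From the lists, up to 3 called genes a list and direction could be named by the largest log2 change in DMSO at 3 h and 24 h against 0 h and in palbociclib against DMSO at 24 h. For each member the 2 genes with the highest Pearson r over group means were named, among tested genes whose mean log2 CPM (prior count 2) reached 3. Figures were drawn with matplotlib 3.10.9 in Python 3.11.15. Promoters are RefSeq's on GRCh38.p14, matched by symbol.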

Additional observations from a re-analysis of the deposited data

Results flagged for a closer look

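In the fit of all 31 libraries, the palbociclib effect on BIRC3 differed between times. That call was lost without some single libraries, given below, and without the 5 libraries (-0.67). Palbociclib minus DMSO was 0.11 ± 0.11 (log2, SE) at 9 h and -0.54 ± 0.14 at 24 h, and the difference of the differences was -0.65 ± 0.18 (adjusted p = 0.0138 by edgeR over all genes). Both palbociclib libraries were below both DMSO libraries at 24 h, while the groups overlapped at 9 h. At 24 h the groups did not overlap for 5 of the 10 members. With 2 libraries in each 24 h group, the adjusted p was 0.0802 without 24 h DMSO replicate 3 and 0.0641 without 24 h palbociclib replicate 1 (0.0654 and 0.0801 with TMM factors recomputed).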

How the results depend on the processing

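Of 160 results (10 members in 16 comparisons) 71 were called, 55 of these kept their call under all 8 other settings and with any 1 library left out, 16 lost it somewhere, and 16 uncalled results gained one somewhere. No called result changed direction. With only their own libraries in the fit, 2 members were called from 9 to 12 h and 1 from 12 to 15 h, and without the filter 1 from 12 to 15 h. For palbociclib at 24 h, 1 member was called with library totals, with no filter, with own libraries only and, with recomputed factors, without the 5 libraries. Without the 5 libraries, 2 members were called from 15 to 24 h and 0 for the palbociclib effect at 24 h minus 9 h, with factors recomputed or kept, and with factors kept 3 from 6 to 9 h and 0 for palbociclib at 24 h. Fewer of all genes were called without the 5 libraries in these comparisons too, and the cause was not tested. Recomputing the factors without the 5 libraries moved the median change of all genes from -0.08 to 0.00 at 6 h and from -0.08 to 0.01 at 12 h. Of the fits without the 5 libraries, only that with recomputed factors called RELA and NFKBIB higher at 9 h (0.18 and 0.28). Of these fits it alone did not call BIRC2 at 9 h or TNFAIP3 at 6 h (both -0.13). The calls of NFKBIB at 9 h and TNFAIP3 at 6 h also changed in other settings, as given above. With 1 library left out, recomputed factors alone ended the 15 h call of NFKB1 without 0 h replicate 3 (0.12) and the 3 to 6 h call of BIRC2 without 6 h DMSO replicate 1 (0.19). They alone gave calls at 9 h to RELA without 9 h DMSO replicate 2 (0.17) and to NFKBIB without 9 h DMSO replicate 1 (0.24) or 2 (0.26), and a 24 h minus 9 h call to NFKBIB without 24 h palbociclib replicate 3 (-0.47). With 1 library left out, the number called ranged from 8 to 9 at 3, 9 and 12 h against 0 h, 6 to 8 at 6 h, 7 to 8 at 15 h and 7 to 9 at 24 h. It ranged from 8 to 10 for 6 h against 3 h, 3 to 4 for 9 h against 6 h and for 24 h against 15 h, 0 to 3 for palbociclib at 24 h and 0 to 2 for the 24 h minus 9 h effect, and stayed at 0 for 12 h against 9 h, 15 h against 12 h and palbociclib at 9, 12 and 15 h. Leaving out a 24 h library leaves a lone library that is assumed to vary like the other groups. Library totals moved the median log2 change of all genes at 3 h from -0.10 to -0.27, at 15 h from -0.06 to -0.17, at 24 h from -0.09 to -0.21 and from 3 to 6 h from -0.03 to 0.07. Under library totals BIRC2 was also called lower at 6, 15 and 24 h (-0.19, -0.21 and -0.26), RELA at 15 h (-0.20) and NFKBIB at 3 h (-0.27). In the fit with the replicate block, 8, 8, 8, 9, 8 and 9 members were called at the 6 times and 2 for palbociclib at 24 h, and the block changed no call of a member. Depth limits NFKBIZ most, whose lowest library count was 127.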
